A study of Mus musculus with 6 samples.

Results

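The integrated stress response was followed through 10 genes, taken from the expression table by symbol: Eif2ak3, Atf4, Ddit3, Asns, Phgdh, Psat1, Trib3, Chac1, Sesn2 and Ppp1r15a. They occupied 11 of the 78298 rows of the table, because Ddit3 is listed under 2 identifiers, and their values were read in all 6 samples. RNA-seq was carried out on RENCA cells, an established mouse renal adenocarcinoma line. In 3 samples the cells had been transduced with a lentivirus that carried AQP1, a water channel (oe-AQP1), and in 3 samples with the negative control lentivirus (oe-NC). Puromycin (2 μg/mL) was applied for 14 days to both groups, and no other chemical treatment was given. Each group is described as a stably transduced line after this selection, and the labels do not say whether the 3 samples of a line were separate cultures. The comparison asks whether a line that overexpressed AQP1 differed from its control line in the RNA of these genes.

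In this response, stress-activated kinases phosphorylate the translation initiation factor eIF2α, which lowers protein synthesis in general while the transcription factor ATF4 is translated more. ATF4 in turn induces genes for amino acid synthesis, amino acid import and tRNA charging, and, under lasting stress, the factor CHOP and genes linked to cell death. The pathway is known in tumour cells as a way to adapt to shortage of amino acids, to unfolded protein in the endoplasmic reticulum (ER) and to viral RNA. RNA counts measure neither the phosphorylation of eIF2α nor the amount of ATF4 protein.

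Several of these genes are known as direct targets of ATF4, and the sequence around their start sites was searched for its element. ATF4 binds, together with C/EBP proteins, an element whose core can be written TGATGNAA. Both strands of the window from 250 bases before to 50 bases after each transcription start were searched for these 8 letters in the RefSeq promoter table (GRCm38.p6), where all 10 genes had an entry. The core stood in the windows of Asns, Chac1 and Trib3, that is in 30.0% of the 10 genes, against 4.51% of the 27025 genes of the table. The cyclic AMP response element, TGACGTCA, stood in the window of Ppp1r15a alone among the 10 genes and in 2.03% of all genes. No window of the 10 genes held the ER stress element, which was present in 0.137% of all genes and in 9 of 26 genes with an entry from the ATF6 and XBP1 list described further on. These matches are of letters only, within a short window, and are not measurements of binding. The 4 matches are shown from 5′ to 3′ on the strand of the gene, with the match in capitals, so that the element and its distance from the start can be seen.
Asns, 60 bases up to the base before the start, chr6:7693210-7693269, minus strand, match at positions -23 to -16: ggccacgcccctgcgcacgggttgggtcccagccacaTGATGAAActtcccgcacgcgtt
Chac1, 60 bases upstream, chr2:119351023-119351082, plus strand, match on the opposite strand at -193 to -186: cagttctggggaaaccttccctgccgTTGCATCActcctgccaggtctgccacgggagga
Trib3, 30 bases just after the start, chr2:152344028-152344057, minus strand, match on the opposite strand at positions 15 to 22: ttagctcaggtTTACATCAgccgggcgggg
Ppp1r15a, 60 bases up to the base before the start, chr7:45526269-45526328, minus strand, cyclic AMP response element at -12 to -5: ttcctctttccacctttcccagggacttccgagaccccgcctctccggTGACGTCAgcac
Of the 3 genes with the core, Asns and Chac1 were lower in oe-AQP1 and Trib3 did not pass the test (values are given with each gene). Over all genes tested that had a window, 19.3% of the 295 with the core were higher and 20.7% were lower, against 16.2% and 19.0% of the 9910 without it.

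The samples held between 18385714 and 21920899 expected counts. Levels are given as counts per 1000000 counts of a library (CPM), with the library size scaled by TMM. Differences were tested by limma-voom over the 15522 genes that passed a filter on low counts, with Benjamini-Hochberg adjustment (FDR), and a gene was called at an FDR under 0.05. A log2 fold change (log2FC) is oe-AQP1 against oe-NC, and the study's threshold for a differentially expressed gene (DEG) also asks for an absolute log2FC above 1. Aqp1 itself was at 7713, 8545 and 7838 counts with the AQP1 vector and at 41, 25 and 45 counts with the control vector, in the direction of the labels. One control library stood apart. The chi-square per gene between oe-NC sample 1 and the other 2 oe-NC samples was 9.81 and 11.4, whereas the 4 other pairs of samples within a group lay between 1.71 and 2.04. Results whose call, sign or size (by over 1.5 times) depends on this sample are therefore given with and without it. The sample was singled out from these same data, so a narrower interval or a lower FDR without it is not independent support. The renal epithelial markers Krt8, Krt18 and Pax8 were well expressed while Epcam was listed at 0 in all samples. Of the 7 epithelial markers tested, 5 were lower in oe-AQP1 (71.4%, against 16.6% of all genes). Without oe-NC sample 1, Krt19 was not called (FDR = 0.104) and Pax2 was called higher (log2FC = 0.41, FDR = 3.99e-06). The summed level of the epithelial markers was 785 to 814 CPM in oe-AQP1 and 955 to 1057 CPM in oe-NC. White blood cell markers summed to 60.1 to 62.9 CPM against 70.7 to 72.2 CPM, with Ptprc, Adgre1, Cd3e and Itgam under 20 counts in every sample. Of the 5 white blood cell markers tested, 2 were lower in oe-AQP1 and 3 were not called. The lower ones were Csf1r (log2FC = -1.51, FDR = 1.31e-05), which met the DEG threshold, and Lyz2 (log2FC = -0.52, FDR = 0.000273). The part of these shifts in the results was not tested.

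Of the 10 genes, 1 was higher in oe-AQP1 (Atf4) and 5 were lower (Eif2ak3, Asns, Phgdh, Psat1 and Chac1), and the other 4 (Ddit3, Trib3, Sesn2 and Ppp1r15a) did not pass the test. Over all genes tested, 16.0% were higher and 16.6% were lower. All differences were small. The log2FC ranged from -0.30 to 0.11 with a median of -0.10, against a median of 0.002 over all genes, and no limit of a 95% interval lay farther from 0 than 0.44. None of the 10 genes met the DEG threshold by limma-voom, edgeR or DESeq2, although 6 had an unadjusted p under 0.05 by limma-voom, and 5.23% of all genes met it. The CPM values of the groups did not overlap for the same 6 genes, 1 higher and 5 lower, and over all genes the groups did not overlap upward for 23.5% and downward for 23.8%. With 3 samples against 3, the smallest p of an exact two-sided permutation test was 0.1, which these 6 genes reached. In bulk RNA a lower level cannot be divided into fewer cells that express a gene and less RNA per cell.

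**Figure D1:**
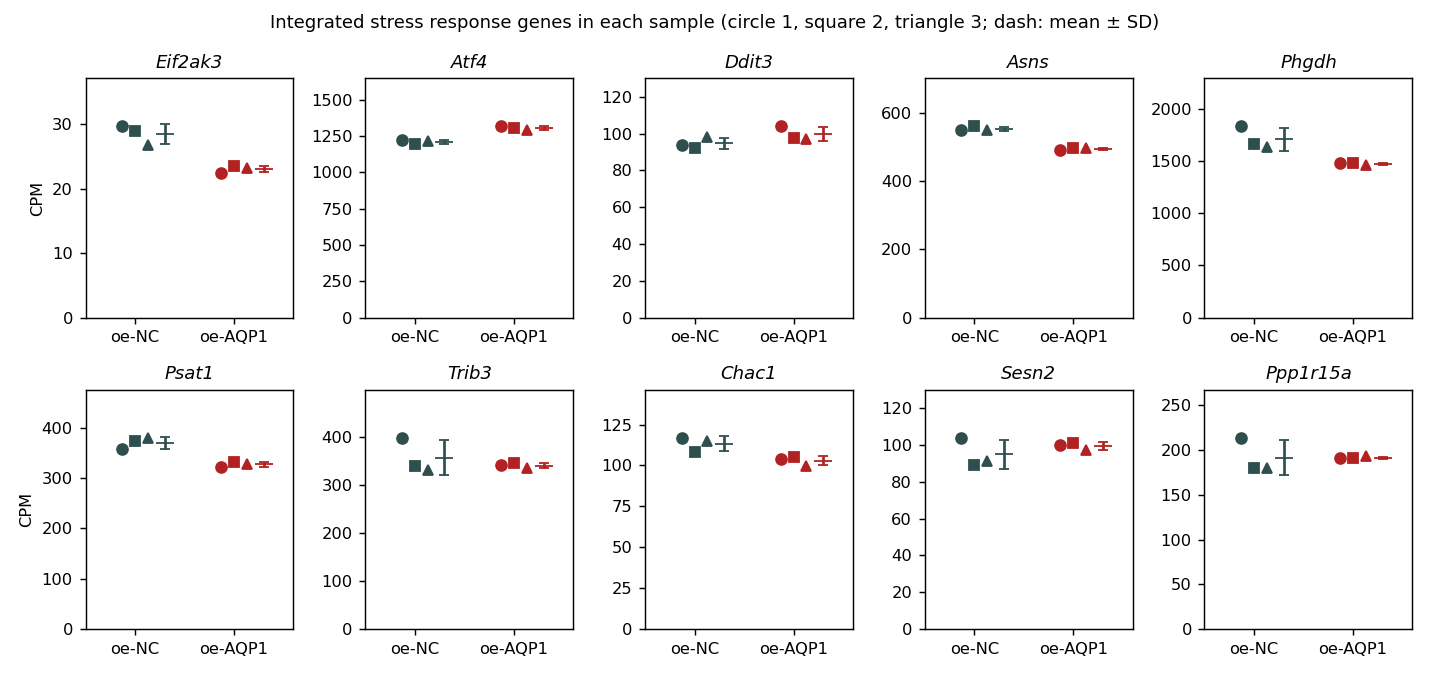
CPM of each of the 10 genes in the 3 oe-NC and 3 oe-AQP1 samples, one panel per gene, with each axis starting at 0 and the mean ± SD beside the points. The groups are separate for Eif2ak3, Atf4, Asns, Phgdh, Psat1 and Chac1. The oe-NC sample 1 (circle) is the highest control for Eif2ak3, Atf4, Phgdh, Trib3, Chac1, Sesn2 and Ppp1r15a.

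Eif2ak3 encodes PERK, the eIF2α kinase of the ER membrane, which senses unfolded protein. Its level was 22.5, 23.5 and 23.2 CPM in the oe-AQP1 samples and 29.7, 29.0 and 26.8 CPM in the oe-NC samples. All 3 oe-AQP1 samples thus lay below all 3 controls, and the mean fell by 19.1%, from 28.5 ± 1.49 to 23.1 ± 0.543 CPM (SD, n = 3 each). This was the largest relative difference among the 10 genes (log2FC = -0.30, SE 0.06, 95% interval -0.44 to -0.16, FDR = 0.00436). The call held in each of the 6 fits that left out a sample, and without oe-NC sample 1 the log2FC was -0.27 (FDR = 0.0016). The gene lies on chromosome 6 from 70821461 to 70882235 (GRCm39, plus strand).

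PERK is one of 4 kinases that phosphorylate eIF2α, and the largest difference among them was in another one. Eif2ak2, which encodes PKR, the kinase for double-stranded RNA and itself an interferon-induced gene, had 407, 400 and 405 CPM in oe-AQP1 and 170, 183 and 176 CPM in oe-NC. Its level was 2.29 times as high in oe-AQP1 (log2FC = 1.20, SE 0.04, FDR = 3.46e-09), and it met the DEG threshold. Eif2ak4, which encodes GCN2, the sensor of uncharged tRNA, had 40.7 ± 0.978 CPM in oe-AQP1 and 45.0 ± 2.40 CPM in oe-NC (log2FC = -0.14, FDR = 0.0731). The groups did not overlap, yet the gene did not pass the test with all 6 samples, and it did without oe-NC sample 1 (log2FC = -0.13, FDR = 0.0469) or oe-NC sample 3 (log2FC = -0.19, FDR = 0.0365). Eif2ak1, which encodes HRI, the heme-regulated kinase, had 59.3 ± 3.71 and 59.8 ± 1.70 CPM (log2FC = -0.01, 95% interval -0.14 to 0.11, FDR = 0.885), and the sign of this difference changed with the setting. Per transcript length, as TPM (CPM corrected for transcript length), Eif2ak2 made up 77.2 to 78.8% of the RNA of the 4 kinases in the oe-AQP1 samples and 57.3 to 59.6% in the oe-NC samples, while Eif2ak3 made up 4.14 to 4.33% and 8.68 to 9.52%.

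**Figure D2:**
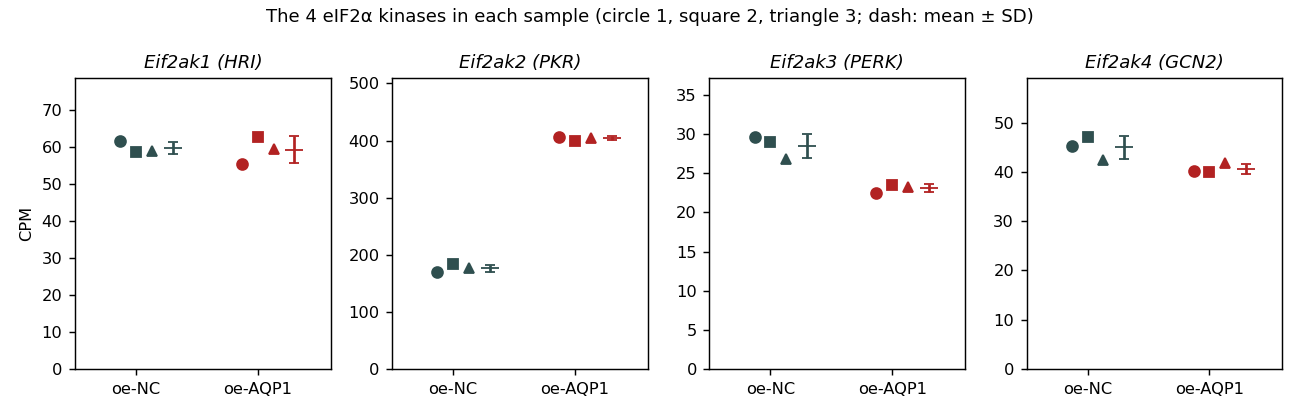
CPM of the genes for the 4 eIF2α kinases in each sample, one panel per gene, each axis starting at 0, with the mean ± SD beside the points of oe-NC and oe-AQP1. Eif2ak2 lies at 400 to 407 CPM in oe-AQP1 and 170 to 183 CPM in oe-NC, whereas Eif2ak3 is lower in oe-AQP1 and the points of Eif2ak1 overlap.

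Atf4, the transcription factor at the centre of the response, was the only one of the 10 genes that passed the test upward with all 6 samples. It had 1318, 1303 and 1291 CPM in oe-AQP1 and 1222, 1194 and 1213 CPM in oe-NC. The groups did not overlap, and the means of 1304 ± 13.8 and 1210 ± 14.1 CPM differed by 7.83% (log2FC = 0.11, SE 0.03, 95% interval 0.05 to 0.17, FDR = 0.0133). Every fit gave a positive value, from 0.10 to 0.12 when each sample was left out in turn. The call was lost, however, when oe-AQP1 sample 1 (FDR = 0.0847), sample 2 (FDR = 0.0706) or sample 3 (FDR = 0.0532) or oe-NC sample 2 (FDR = 0.0582) was left out. Without oe-NC sample 1 the FDR was 8.37e-07. Atf4 lies on chromosome 15 from 80139372 to 80141745 (GRCm39, plus strand).

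Ddit3 encodes CHOP, a partner and target of ATF4 that is linked to cell death under lasting ER stress. It had 104, 97.7 and 97.3 CPM in oe-AQP1 and 94.0, 92.2 and 97.9 CPM in oe-NC, so that the highest control lay within the range of the oe-AQP1 samples. The difference did not pass the test (log2FC = 0.07, SE 0.04, 95% interval -0.03 to 0.17, FDR = 0.262), nor did it in any fit that left out a sample. These values belong to the identifier ENSMUSG00000025408. The second identifier with the symbol Ddit3, ENSMUSG00000116429, lies within the first on chromosome 10 and had between 0 and 2.22 expected counts, so it did not enter the test. Expected counts of Ddit3, Eif2ak3 and Phgdh were fractional in part, and how the fractions arose is not given in the sources used here.

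Asns, Phgdh and Psat1, the 3 enzymes of amino acid synthesis among the 10 genes, were each lower in oe-AQP1. Asns, asparagine synthetase, had 492, 497 and 497 CPM in oe-AQP1 and 549, 561 and 550 CPM in oe-NC. Its mean fell by 10.4%, from 553 ± 6.82 to 496 ± 2.86 CPM (log2FC = -0.16, SE 0.03, 95% interval -0.23 to -0.09, FDR = 0.00278). The samples of each group lay close together, and the gap between the groups was wider than the range within either. The gene lies on chromosome 6 from 7671667 to 7728461 (GRCm39, minus strand). Its window shown above, with the element on the strand of the gene, is at the RefSeq start in GRCm38.p6. That window and this span come from different builds and annotations, so their positions cannot be compared directly.

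Phgdh, the enzyme of the first step from a glycolytic intermediate towards serine, had 1484, 1481 and 1466 CPM in oe-AQP1 and 1836, 1664 and 1635 CPM in oe-NC. Its mean fell by 13.7% (log2FC = -0.21, SE 0.04, FDR = 0.00377). The control mean of 1712 ± 109 CPM was raised by oe-NC sample 1, without which the log2FC was -0.16 (FDR = 1.17e-09). Psat1, which catalyses the next step, had 321, 331 and 328 CPM against 357, 373 and 380 CPM, and its mean fell by 11.7% (log2FC = -0.18, SE 0.04, FDR = 0.004). In Psat1 oe-NC sample 1 was the lowest control rather than the highest, and without it the log2FC was -0.20 (FDR = 2.16e-07). All 3 enzymes were called in each of the 6 fits that left out a sample. Psph, which completes the serine pathway and was not among the 10 genes, was also lower (log2FC = -0.17, FDR = 0.00488).

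The remaining 4 genes act on stress signalling or redox state. Chac1, which degrades glutathione, had 104, 105 and 99.9 CPM in oe-AQP1 and 117, 108 and 115 CPM in oe-NC. The groups did not overlap and the mean fell by 9.1% (log2FC = -0.14, SE 0.05, 95% interval -0.24 to -0.04, FDR = 0.0413). This FDR is close to the threshold. The call was lost with DESeq2 (FDR = 0.08) and with scaling by library size only (FDR = 0.0583). It was also lost without oe-AQP1 sample 1 (FDR = 0.0985), 2 (FDR = 0.0913) or 3 (FDR = 0.164) and without oe-NC sample 3 (FDR = 0.101), and held without oe-NC sample 1 (log2FC = -0.11, FDR = 0.0152).

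Trib3, a pseudokinase that restrains ATF4 and CHOP, had 340, 345 and 334 CPM in oe-AQP1 and 398, 339 and 331 CPM in oe-NC. Only oe-NC sample 1 stood above the other 5 samples, and the difference did not pass the test (log2FC = -0.06, 95% interval -0.20 to 0.07, FDR = 0.473). Without that sample the log2FC was 0.02 (FDR = 0.509).

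Sesn2, sestrin 2, which restrains mTORC1 when leucine is short, had 100, 101 and 97.1 CPM in oe-AQP1 and 104, 89.2 and 91.5 CPM in oe-NC. Again oe-NC sample 1 was the highest of all, and the other 2 controls lay below every oe-AQP1 sample. With all samples the difference did not pass the test (log2FC = 0.07, 95% interval -0.06 to 0.20, FDR = 0.384), and without oe-NC sample 1 it did (log2FC = 0.14, 95% interval 0.07 to 0.21, FDR = 0.00299).

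Ppp1r15a encodes GADD34, the stress-induced subunit that directs protein phosphatase 1 to eIF2α and so ends the response. Its values were 191, 191 and 193 CPM in oe-AQP1 and 214, 180 and 180 CPM in oe-NC. The oe-AQP1 samples lay between oe-NC sample 1 and the other 2 controls (log2FC = 0.01, 95% interval -0.13 to 0.15, FDR = 0.932). Without oe-NC sample 1 the gene passed the test upward (log2FC = 0.09, 95% interval 0.04 to 0.15, FDR = 0.00542), and without oe-NC sample 2 or 3 the log2FC was negative. The constitutive subunit of the same phosphatase, Ppp1r15b, had a log2FC of 0.01 (95% interval -0.07 to 0.10, FDR = 0.802), with a sign that changed with the filter.

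Leaving out oe-NC sample 1 thus gave 3 genes higher (Atf4, Sesn2 and Ppp1r15a) and the same 5 lower, against 19.4% and 20.7% of the 16085 genes then tested. Leaving out any oe-AQP1 sample or oe-NC sample 2 gave 0 genes higher by limma-voom, since the Atf4 call was then lost. The summed level of the 10 genes was 4478, 4476 and 4426 CPM in oe-AQP1 and 4921, 4629 and 4620 CPM in oe-NC, a sum in which Phgdh and Atf4 have the most weight.

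**Figure D3:**
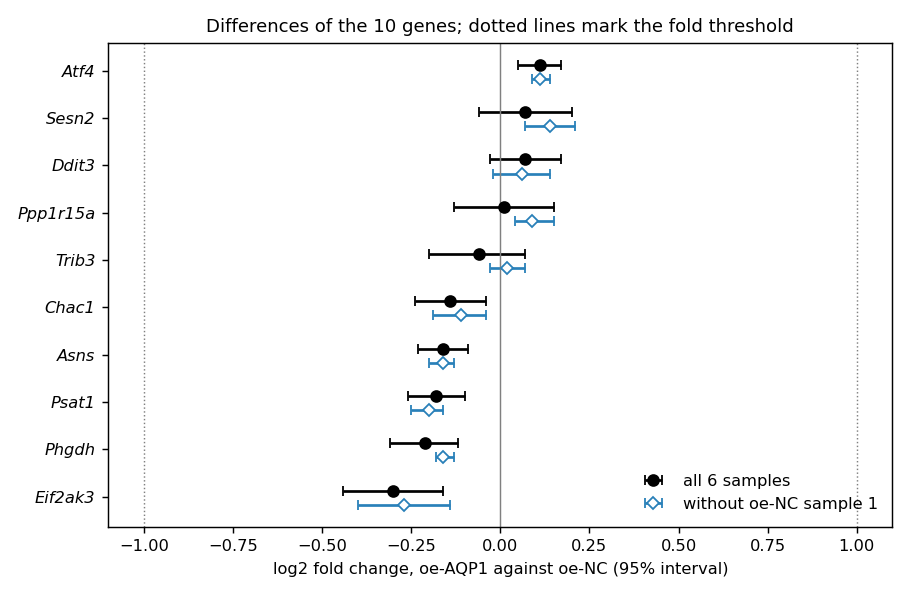
The log2FC of each of the 10 genes with its 95% interval, for all 6 samples (filled circles) and without oe-NC sample 1 (open diamonds), with dotted lines at a log2FC of -1 and 1. The values lie between -0.30 and 0.14, far inside the dotted lines. The intervals of all 10 genes are narrower without oe-NC sample 1, which was picked from these same data as standing apart.

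Levels were compared between genes only per transcript length. In the oe-NC samples the mean TPM fell in the order Phgdh (2079), Atf4 (1596), Trib3 (392), Psat1 (324), Asns (259), Ddit3 (222), Ppp1r15a (189), Chac1 (156), Sesn2 (62.6) and Eif2ak3 (14.4). Of the neighbours in this order, Ddit3 at 214 to 226 TPM and Ppp1r15a at 174 to 216 TPM overlapped between samples, and the others did not. The order in oe-AQP1 was the same except that Ddit3, at 233 to 246 TPM, and Asns, at 234 to 238 TPM, overlapped. By TPM, Atf4 and Phgdh lay at percentiles 99.6 and 99.7 of the genes tested, whereas Eif2ak3 lay at percentile 44.7. The order depended on the length used. With the length of all annotated exons instead of the canonical transcript, the mean of Ddit3 in oe-NC was 65.8 TPM, below Sesn2 at 81.2 TPM, and that of Ppp1r15a was 253 TPM, above Psat1 at 244 TPM and Asns at 183 TPM.

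**Figure D4:**
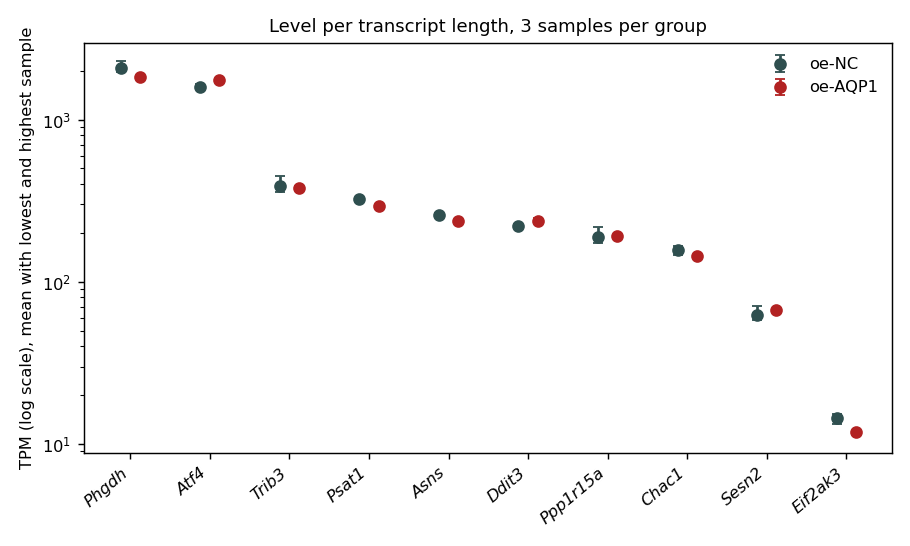
Mean TPM of each of the 10 genes in oe-NC and oe-AQP1 on a log axis, with bars from the lowest to the highest of the 3 samples. The level runs from 2079 TPM for Phgdh to 14.4 TPM for Eif2ak3 in oe-NC, and the difference between the groups is small beside the difference between genes.

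The annotation deposited with the table placed Asns, Atf4, Eif2ak3 and Sesn2 among the 29 tested genes of the cellular response to glucose starvation, and Atf4, Eif2ak3, Ppp1r15a and Trib3 among the 59 of the response to ER stress. Both groups of 4 held genes that were higher, lower and not called. The 5 genes outside the lists whose log2 CPM followed Atf4 most closely over the 6 samples were Rsrp1 (Pearson r = 0.999), Ctsz (r = 0.998), Mtarc2 (r = 0.998), Dapp1 (r = 0.995) and Zfand3 (r = 0.994), out of 9755 genes compared. Any gene that is higher in oe-AQP1 with little spread within the groups has a high r over these 6 samples, so the values are a description.

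The wider pathway was read from 7 gene lists, which hold the 10 genes where they belong. A share of genes called also depends on precision, which is higher for well-counted genes. The median SE of the log2FC over all genes tested was 0.0782, and the shares of lists and of all genes were not matched for level. Among 23 kinases, eIF2 and eIF2B subunits and phosphatase subunits, 3 were higher (13.0%, against 16.0% of all genes tested) and 6 were lower (26.1%, against 16.6%), with a median log2FC of -0.04. Apart from Eif2ak2, Eif2b3, a subunit of the exchange factor that recycles eIF2, was higher (log2FC = 0.16, FDR = 0.0411). That call was lost with DESeq2 (FDR = 0.0948), with no low-count filter (FDR = 0.16), and without any one oe-AQP1 sample (FDR = 0.0621 to 0.149) or oe-NC sample 2 (FDR = 0.0818). Gcn1, which activates GCN2 on stalled ribosomes, was lower (log2FC = -0.34, FDR = 0.00616). Its oe-NC values were 278 ± 35.3 CPM, and without oe-NC sample 1 its log2FC was -0.23 (FDR = 1.32e-07). Without that sample the list had 5 genes higher and 10 lower, in a fit that called 19.4% and 20.7% of all genes, and without oe-AQP1 sample 1 or 2 it had 1 higher.

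Among partners of ATF4 and related bZIP factors, 15 of 16 were tested, 5 were higher (33.3%, against 16.0% of all genes) and 1 was lower (6.67%, against 16.6%), with a median of 0.04. Of the 13 that were not among the 10 genes, 4 were higher and 1 was lower, with a median of -0.11. Batf2, an interferon-inducible factor, had 240, 275 and 265 counts in oe-AQP1 and 62, 44 and 56 in oe-NC (log2FC = 2.19, SE 0.13, FDR = 6.44e-07). Fos (log2FC = 0.54, FDR = 0.00031), Atf3 (log2FC = 0.38, FDR = 0.000412) and Cebpg, a dimer partner of ATF4 (log2FC = 0.23, FDR = 0.00522), were higher too. Cebpa was the one that was lower (log2FC = -0.40, FDR = 0.0293), and that call was lost when any one oe-AQP1 sample was left out (FDR = 0.0649 to 0.0995). Without oe-NC sample 1 the log2FC of Cebpa was -0.25 (FDR = 0.0128). Cebpb did not pass the test (log2FC = -0.25, FDR = 0.332). It had 8711 counts in oe-NC sample 1 and 4781 and 5044 in the other 2 controls, and without sample 1 its log2FC was 0.03. The number of lower genes of this list was 4 without oe-NC sample 1, 3 without oe-NC sample 2 or 3, and 0 without any one oe-AQP1 sample.

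Enzymes of serine, glycine, one-carbon, proline, alanine and asparagine metabolism were lower for the most part. Of 22 tested, 14 were lower (63.6%, against 16.6% of all genes) and 1 was higher (4.55%, against 16.0%), with a median log2FC of -0.17, and of the 19 that were not among the 10 genes, 11 were lower and 1 was higher. Mthfd1l, a mitochondrial formate-producing enzyme, had 2694, 3044 and 2746 counts in oe-AQP1 and 4035, 3579 and 4096 in oe-NC (log2FC = -0.54, SE 0.04, FDR = 4.33e-06). Pycr1, of the last step of proline synthesis, was lower (log2FC = -0.51, FDR = 0.000123), and so was Shmt2, the mitochondrial serine hydroxymethyltransferase (log2FC = -0.17, FDR = 0.0219). The Shmt2 call was lost without any one oe-AQP1 sample (FDR = 0.0569 to 0.0894), and without oe-NC sample 1 its log2FC was -0.11 (FDR = 3.23e-05). The cytosolic counterpart, Shmt1, was the one enzyme that was higher (log2FC = 0.33, FDR = 0.000605). Mthfd2, a mitochondrial folate enzyme often used as an ATF4 target, did not pass the test (log2FC = -0.03, 95% interval -0.11 to 0.06, FDR = 0.598). Between 11 and 14 of these enzymes were lower, and 1 was higher, whichever sample was left out.

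Among amino acid transporters, 14 of 17 were tested, 2 were higher (14.3%, against 16.0% of all genes) and 4 were lower (28.6%, against 16.6%), with a median of 0.02. Slc38a1, a neutral amino acid transporter, had 147, 155 and 157 CPM in oe-AQP1 and 66.0, 68.9 and 64.2 CPM in oe-NC (log2FC = 1.20, SE 0.05, FDR = 1.75e-08). Slc3a2, the heavy chain shared by several exchangers, was higher (log2FC = 0.13, FDR = 0.0161), while its light chain for large neutral amino acids, Slc7a5, was lower (log2FC = -0.21, FDR = 0.0123). The Slc3a2 call was lost without any one oe-AQP1 sample or oe-NC sample 2 (FDR = 0.0679 to 0.0741), and the Slc7a5 call without oe-AQP1 sample 3 (FDR = 0.0555). Slc38a2, a starvation-induced relative of Slc38a1, was also lower (log2FC = -0.20, FDR = 0.00215). The cystine transporter gene Slc7a11 did not pass the test (log2FC = -0.17, FDR = 0.148), and did without oe-NC sample 1 (log2FC = -0.26, FDR = 0.00178). The number of higher transporters was 4 without oe-NC sample 1 and 1 without any one oe-AQP1 sample or oe-NC sample 2, and the number of lower ones was 2 without oe-AQP1 sample 2 and 1 without oe-AQP1 sample 3.

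Of the 23 cytosolic aminoacyl-tRNA synthetases and tRNA export genes, 12 were lower (52.2%, against 16.6% of all genes) and 1 was higher (4.35%, against 16.0%), with a median of -0.12. Xpot, the tRNA exporter, fell furthest (log2FC = -0.39, FDR = 1.62e-05), followed by Wars1, the tryptophanyl-tRNA synthetase (log2FC = -0.26, FDR = 0.000392). Kars1, the lysyl-tRNA synthetase, was the one that was higher (log2FC = 0.16, FDR = 0.022), and that call was lost in 5 of the 6 fits that left out a sample. Without oe-NC sample 1 there were 17 lower and 3 higher, against 20.7% and 19.4% of all genes in that fit, and without oe-AQP1 sample 1 or 3 there were 7 lower.

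Of 33 tested genes among other targets of ATF4 and CHOP, 7 were higher (21.2%, against 16.0% of all genes) and 11 were lower (33.3%, against 16.6%), with a median of -0.11. Besides Atf3 and Cebpg, which are also targets, Car6, a carbonic anhydrase, was the furthest from 0. Its counts were low, 40, 31 and 46 in oe-AQP1 and 83, 100 and 105 in oe-NC (log2FC = -1.38, SE 0.20, FDR = 0.000486). Ero1a, the ER oxidase that is also induced by hypoxia, was lower (log2FC = -0.68, FDR = 4.54e-06), as was Ddit4, an inhibitor of mTORC1 (log2FC = -0.36, FDR = 3.14e-05). The number of higher targets was 4 without any one oe-AQP1 sample, oe-NC sample 2 or oe-NC sample 3.

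The ATF6 and XBP1 arms of the unfolded protein response, which work beside PERK, had 4 genes higher (13.8%, against 16.0% of all genes) and 8 lower (27.6%, against 16.6%) of 29 tested, with a median of -0.03. Hspa5, the ER chaperone BiP, was higher by a small margin (log2FC = 0.11, SE 0.03, FDR = 0.01), a call that was lost without any one oe-AQP1 sample (FDR = 0.0517 to 0.0672), and Xbp1 did not pass the test (log2FC = 0.07, FDR = 0.237). Syvn1, a ubiquitin ligase of ER-associated degradation, was higher (log2FC = 0.29, FDR = 0.00326) and so was Crebrf (log2FC = 0.28, FDR = 0.0245). The Crebrf call was lost with no low-count filter (FDR = 0.0549) and without any one oe-AQP1 sample (FDR = 0.0672 to 0.0803), and its log2FC was 0.18 without oe-NC sample 1 (FDR = 0.0142). Edem1, which directs misfolded glycoproteins to degradation, was lower (log2FC = -0.43, FDR = 0.000212), and so was Wfs1 (log2FC = -0.42, FDR = 0.0116), whose call was lost without oe-AQP1 sample 2 (FDR = 0.0598) or 3 (FDR = 0.0543). Without oe-NC sample 1 this list had 13 genes lower, against 20.7% of all genes in that fit. Without oe-AQP1 sample 2 or 3 it had 5 lower, and without any one oe-AQP1 sample 2 were higher.

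**Figure D5:**
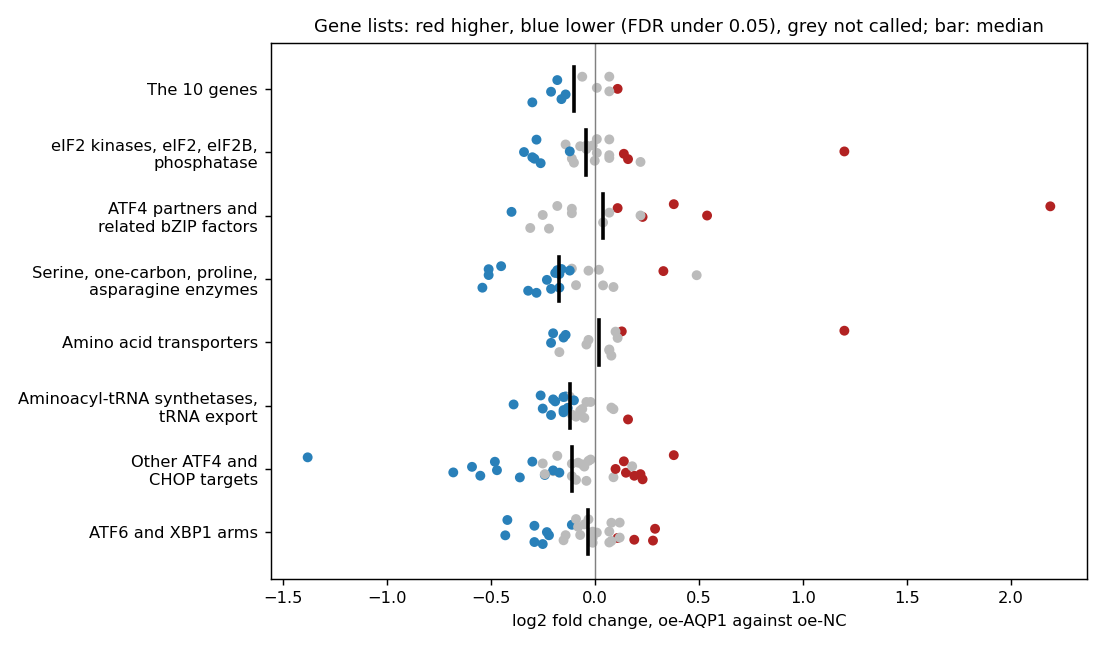
The log2FC of each tested gene in the list of 10 genes and in the 7 wider lists, 1 point per gene (red, higher; blue, lower; grey, not called), with a bar at the median of each list. The medians lie between -0.17 and 0.04, the points of the amino acid enzymes and of the tRNA synthetases lie mostly left of 0, and Batf2, Eif2ak2 and Slc38a1 are the points above 1.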

How the data were processed

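Total RNA from 6 RENCA samples, 3 per group, was sequenced with Illumina TruSeq libraries, and all samples carry the same batch label. Per the labels, the tools were fastp, HISAT2 and featureCounts (Subread) and the build was GRCm38/mm10, whereas the study's methods name GRCm39, and which of them made the table is not given in the sources used here. The authors deposited expected counts per gene, unscaled, which can be fractional. The 2 columns of group means were not used. Counts were rounded and tested with limma 3.58.1 (voom with TMM from edgeR 4.0.16, filterByExpr with the group, R 4.3.3). The interferon-stimulated genes that the authors removed were kept. TPM used the canonical transcript length of GENCODE M39, which matched 78168 identifiers and gave the GRCm39 positions. As alternatives, DESeq2 1.42.0, edgeR's quasi-likelihood test, sample quality weights, 3 scalings, 2 filters, unrounded counts, a replicate block and leaving out each sample were run. The labels do not say that samples were separate cultures, so p-values measure the spread between these samples, which may be technical.

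The 10 genes, the lists and the tests were chosen with earlier results of these data known. By rule, the text names all 10 genes, up to 2 higher and 2 lower genes per list with the largest log2FC among those called with a mean of at least 20 counts, and 15 further genes of interest. The 5 genes most like Atf4 had a mean of at least 10 CPM. The epithelial, white blood cell and list genes under 20 counts were named to show the makeup of the lists. Other marker lists gave 1 of 2 proximal tubule genes tested lower, 0 of 1 endothelial gene called, and 1 of 3 fibroblast genes higher and 1 lower. The shares over all genes were 16.0% higher and 16.6% lower. Without oe-NC sample 1 both proximal tubule genes were called lower (FDR = 1.27e-08 and 0.0115). The precision is limited by 3 samples per group and by counting error at low counts. Scripts were tested on simulated data that held no outlying library, so this does not bear on how firm the calls are.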

Additional observations from a re-analysis of the deposited data

How the results depend on the processing

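The 5 lower genes among the 10 kept their direction in all 16 alternatives, and their number was 4 or 5. With sample quality weights 2 of the 10 genes were higher. The same weights gave 10 lower genes among the eIF2 factors, 4 lower bZIP factors, 4 higher transporters and 3 higher tRNA synthetases or exporters. Lower bZIP factors numbered 2 with DESeq2 and 3 with no low-count filter. Leaving out 1 sample at a time, the number of higher genes ranged from 0 to 3 among the 10 genes, 1 to 5 among the eIF2 factors, 1 to 4 among the transporters, 0 to 3 among the tRNA synthetases, 4 to 8 among the other ATF4 and CHOP targets and 2 to 6 in the ATF6 and XBP1 arms. The number of lower genes ranged from 4 to 10 among the eIF2 factors, 0 to 4 among the bZIP factors, 1 to 5 among the transporters, 7 to 17 among the tRNA synthetases and 5 to 13 in the ATF6 and XBP1 arms. Among the named genes, signs changed for 5: the log2FC of Trib3 was 0.0003 with quality weights and -0.12 to 0.02 when 1 sample was left out. Ppp1r15a gave -0.01 with no filter and -0.04 to 0.09 with 1 sample left out (-0.03 without oe-NC sample 2). Eif2ak1 gave 0.01 with quality weights, 8e-05 by library size only and -0.06 to 0.03 with 1 sample left out. Cebpb ranged from -0.43 to 0.03 with 1 sample left out, 0.03 being without oe-NC sample 1, and Ppp1r15b gave -0.004 with no filter and -0.003 without oe-AQP1 sample 3. The cause of these changes was not tested.

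The labels do not say that the sample numbers pair the samples. Deviations of same-numbered samples correlated at 0, 0.015 and -0.053, and those of the other pairs at -0.043 to 0.041. With 3 samples per group and a control that stood apart, these values cannot exclude a pairing. With the replicate block 1 of the 10 genes was higher and 4 were lower, since Chac1 was no longer called (log2FC = -0.14, FDR = 0.0603). Eif2b3 was not called either (log2FC = 0.16, FDR = 0.0593), and 3 bZIP factors were lower. The block gave 2346 genes higher and 2479 lower over all genes, against 2481 and 2569 without it.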
